A study of Mus musculus with 27 samples.

Results

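The regions described here were the Runx2 peaks gained in Runx1KO cells, taken as every peak on the Runx2 ChIP-seq list of Runx1KO cells that shared not even 1 bp with a Runx2 peak of control cells. Of the 15608 Runx2 peaks of Runx1KO cells, 4800 were gained and 10808 overlapped a control peak and are called kept. The control list held 17595 Runx2 peaks, of which 6688 had no counterpart in Runx1KO cells and are called lost. The study asked what the loss of Runx1 does to chromatin and transcription in mK4 cells, a mouse line derived from the metanephric mesenchyme, the embryonic tissue that gives rise to the nephrons. Control cells were the parental line, Runx1KO cells carried a CRISPR-Cas9 deletion of the Runx1 exon holding the start codon, and ZebDKO cells carried deletions of the start codon exons of Zeb1 and Zeb2, made in the parental line. Of the 27 samples, 3 libraries of each genotype were RNA-seq, and 3 libraries each of control and Runx1KO cells were ATAC-seq, Runx1 ChIP-seq and Runx2 ChIP-seq. The mutant sub-lines were selected from transfected cells, so that differences between sub-lines and effects of the deletions cannot be told apart.

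Runx1, Runx2 and Runx3 share the Runt domain, which binds the core sequence TGTGGT together with the partner protein Cbfb. Runx1 is best known for its role in blood formation and Runx2 for bone formation, and each can activate or repress transcription depending on its partners. ATAC-seq marks DNA that the transposase can reach, and a Runx2 ChIP-seq peak marks DNA recovered with Runx2, whether Runx2 touches the DNA itself or a protein bound to it.

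Each ChIP-seq condition had 1 peak list, so a peak has no value per library here and no test over replicates was possible. The methods describe peaks called on the combined reads of the replicates, but the peak names of each list carry the name of a single library, and which of these applies is unclear. Intervals below are 95% intervals that cover counting error over peaks only, and the depth of the ChIP-seq libraries is unknown here. Absence from the control list means that no control peak was called, not that control signal was absent.

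The gained peaks fell into 4 groups by the ATAC-seq lists of the study: regions more open in Runx1KO cells (Runx1KO-induced), regions less open in them (Runx1-dependent), regions open to a like degree in both (Runx1-independent), and DNA outside all of these. Strong gained peaks of each group, chosen for TGTGGT near the summit (2 a group), are printed from the mouse assembly NCBIM37 (mm9). Each is given as the 200 bases around the summit, plus strand. They show the DNA under such peaks only, since 38.5% of gained peaks whose sequence could be read held TGTGGT there. Capitals mark each TGTGGT or its reverse complement ACCACA.
Runx1KO-induced, chr12:88757702-88757901, fold 6.32: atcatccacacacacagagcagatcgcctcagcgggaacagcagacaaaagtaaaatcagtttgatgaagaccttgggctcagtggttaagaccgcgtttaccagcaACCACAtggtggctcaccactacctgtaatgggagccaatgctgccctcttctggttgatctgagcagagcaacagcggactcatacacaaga
Runx1KO-induced, chr6:34872056-34872255, fold 5.08: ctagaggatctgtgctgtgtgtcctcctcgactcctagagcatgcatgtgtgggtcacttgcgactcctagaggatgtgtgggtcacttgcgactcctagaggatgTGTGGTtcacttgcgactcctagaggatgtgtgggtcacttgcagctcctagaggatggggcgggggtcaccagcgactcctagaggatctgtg
Runx1-independent, chr5:114806962-114807161, fold 8.25: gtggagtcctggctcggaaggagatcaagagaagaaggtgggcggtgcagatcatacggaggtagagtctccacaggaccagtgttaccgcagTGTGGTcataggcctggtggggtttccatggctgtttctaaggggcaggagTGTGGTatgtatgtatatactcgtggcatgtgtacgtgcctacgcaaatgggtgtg
Runx1-independent, chr2:155119716-155119915, fold 7.03: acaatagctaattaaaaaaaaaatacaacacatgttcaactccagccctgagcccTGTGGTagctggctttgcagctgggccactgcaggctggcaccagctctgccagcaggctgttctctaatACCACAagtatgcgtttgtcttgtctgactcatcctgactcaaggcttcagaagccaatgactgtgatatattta
Runx1-dependent, chr10:24792527-24792726, fold 9.92: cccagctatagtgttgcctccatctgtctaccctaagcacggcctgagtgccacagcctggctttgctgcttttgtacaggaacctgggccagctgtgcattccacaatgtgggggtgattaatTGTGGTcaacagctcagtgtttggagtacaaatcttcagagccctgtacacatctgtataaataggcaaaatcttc
Runx1-dependent, chr10:99623770-99623969, fold 8.74: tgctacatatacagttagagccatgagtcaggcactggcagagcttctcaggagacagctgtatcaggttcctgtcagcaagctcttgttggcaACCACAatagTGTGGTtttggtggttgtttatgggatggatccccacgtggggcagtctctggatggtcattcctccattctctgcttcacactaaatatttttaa
outside open chromatin, chr9:87828065-87828264, fold 8.13: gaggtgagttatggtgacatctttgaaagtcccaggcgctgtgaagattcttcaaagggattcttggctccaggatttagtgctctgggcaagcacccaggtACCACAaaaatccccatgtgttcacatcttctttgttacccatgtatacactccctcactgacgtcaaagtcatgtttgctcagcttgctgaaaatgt
outside open chromatin, chr14:21883605-21883804, fold 7.11: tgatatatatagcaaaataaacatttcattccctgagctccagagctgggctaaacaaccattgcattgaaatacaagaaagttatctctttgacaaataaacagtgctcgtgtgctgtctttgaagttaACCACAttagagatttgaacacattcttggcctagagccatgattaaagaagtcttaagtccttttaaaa

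The first of the Runx1-dependent sequences had the highest fold over background of all gained peaks, 9.92, and lay between genes. The other Runx1-dependent sequence held 2 matches, the nearer 3 bp from the summit, and lay 145 kb from the nearest start. It lay in the domain of Kitl, 146 kb from its start, which encodes the ligand of the Kit receptor. Kitl measured 17.2, 16 and 18.3 TPM (a level per gene length and library) in the control libraries and 0.3 in each Runx1KO library, so the groups were far apart. The Runx1-independent sequence on chromosome 2, inside a transcript, was the only one of the 8 printed peaks with a Runx1 peak of control cells. The exact 32 bases at each of the 8 summits occurred once in the assembly, but near-identical copies were not counted. In the weaker Runx1KO-induced sequence a short unit recurred with small changes, and the marked TGTGGT lay in a copy of this unit. Whether the printed sequences belong to repeat families was not tested.

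Gained peaks were narrow and weak. Their median width was 158 bp and their median fold over background, as MACS2 gave it, was 3.58 (range 1.67 to 9.92), whereas kept peaks had medians of 329 bp and 4.54. Lost peaks resembled gained peaks in size, with medians of 142 bp and 3.83. At or above the median fold of the whole Runx1KO list, 4.10, stood 931 gained peaks (19.4%), and 124 (2.58%) reached its upper quartile of 5.18, which 35.0% of kept peaks did. Fold and width are given as a description, since the same ChIP-seq list supplied the members.

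By distance along the DNA, most gained peaks were far from any control Runx2 peak. How near the control signal at a gained site came to being called is unknown here. In Runx1KO cells 50.2% of gained peaks had a q of at most 0.0001, against 86.2% of kept peaks. The nearest control Runx2 peak was at a median distance of 17.7 kb (interquartile range 2.42 to 52.2), and 2924 gained peaks lay over 10 kb from any. Near the 1 bp overlap limit, 132 gained peaks lay within 50 bp of a control peak (median fold 3.38), and 232 kept peaks overlapped one by at most 50 bp (median fold 3.45). A further 660 gained peaks were over 50 and at most 500 bp away. Gained peaks nevertheless stood in the same neighbourhoods as kept ones, since 61.2% of them had a kept peak within 50 kb, against 66.3% of kept peaks, and 20.7% within 5 kb.

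**Figure D1:**
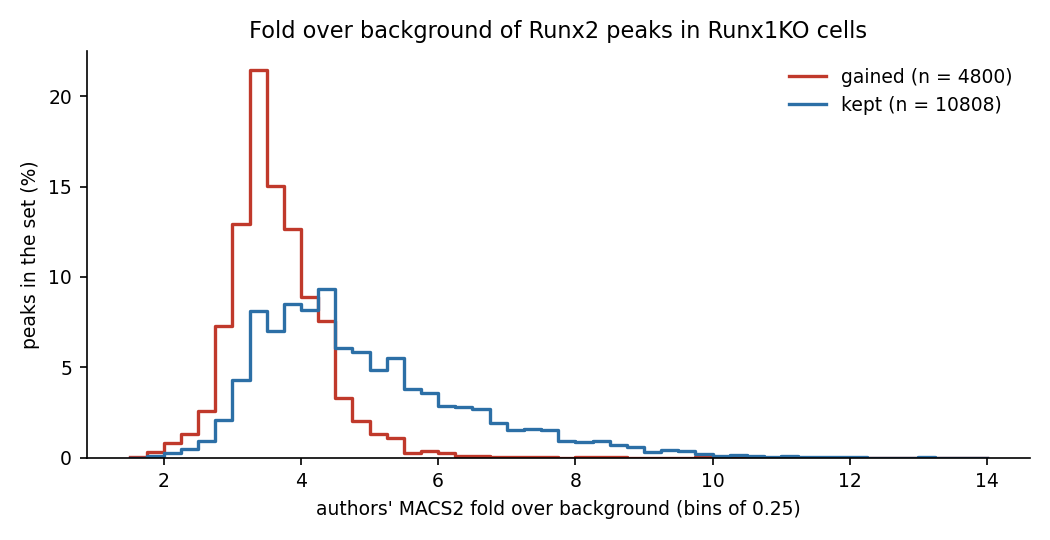
Distribution of the MACS2 fold over background for gained and kept Runx2 peaks. The x axis is fold over background and the y axis the percent of each set's peaks, with gained peaks concentrated around their median of 3.58 and kept peaks (median 4.54) reaching further right.

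Open chromatin held fewer of the gained peaks than of the kept ones. Of the 4800 gained peaks, 2549 (53.1%) lay on Runx1-independent, 440 (9.17%) on Runx1-dependent and 114 (2.38%) on Runx1KO-induced ATAC-seq peaks, and 1697 (35.4%) lay outside every list. The share outside was 21.4 percentage points above the 13.9% of kept peaks (19.9 to 22.9). On Runx1-independent regions gained minus kept peaks gave -18.1 points (-19.8 to -16.5), and on Runx1-dependent regions -3.75 points (-4.77 to -2.70). For Runx1KO-induced regions the difference was 0.450 points with an interval of -0.0311 to 0.980, which includes 0, and with gained peaks over 1000 bp from any control peak it was 0.800 (0.254 to 1.42). Few of the regions that opened in Runx1KO cells carried a gained peak, 110 of 9427 (1.17%), against 428 of 8741 Runx1-dependent regions (4.90%) and 2418 of 37481 Runx1-independent regions (6.45%).

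**Figure D2:**
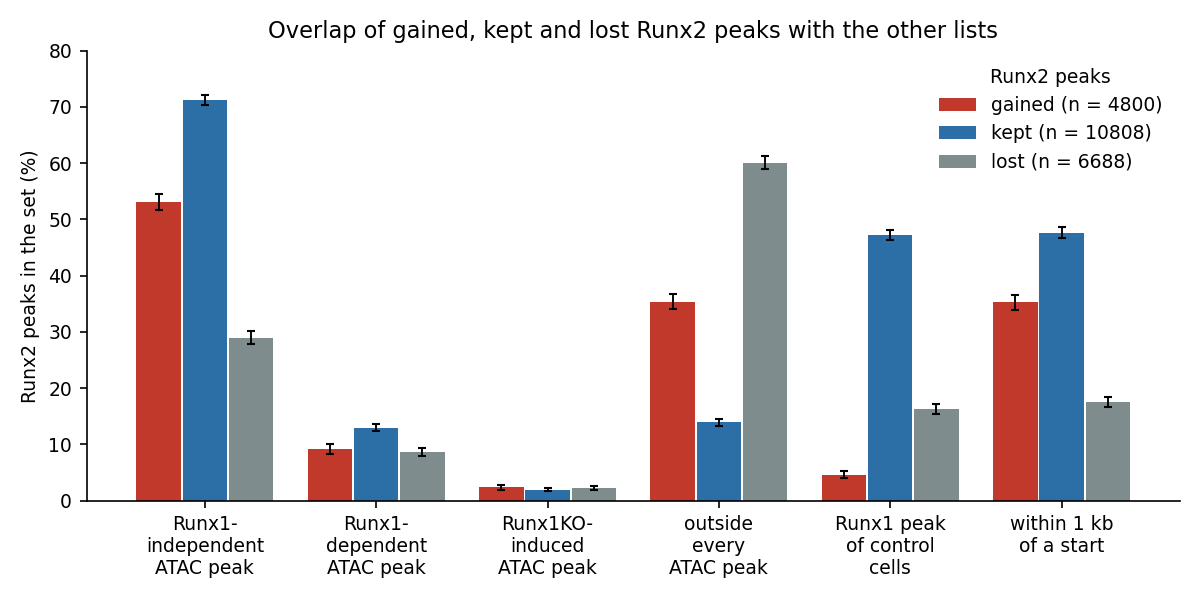
Percent of gained, kept and lost Runx2 peaks on each ATAC-seq list, outside all lists, with a Runx1 peak of control cells and within 1 kb of a start (of the 4716 gained peaks with sequence), with 95% Wilson intervals. Gained peaks (35.4% outside) stand between kept (13.9%) and lost peaks (60.1%), and 4.60% of gained peaks met a Runx1 peak, a share on which the rule itself bears.

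Few gained peaks overlapped a Runx1 peak of control cells. A kept peak by definition has a control Runx2 peak and a gained peak has none, and control Runx1 and Runx2 peaks often coincided. The rule itself therefore bears on the share with a Runx1 peak, which is given as a description. Where no Runx1 peak was called, Runx1 signal may still have been present. A Runx1 peak of control cells overlapped 221 gained peaks (4.60%, 4.05 to 5.23) and 5106 kept peaks (47.2%), a difference of -42.6 points (-43.7 to -41.5). Counted from the other side, 221 of the 10187 Runx1 peaks (2.17%) carried a gained Runx2 peak and 5212 (51.2%) a kept one. The contrast was also present on Runx1-dependent regions, where 17 of the 440 gained peaks (3.86%) met a Runx1 peak, against 60.9% of the kept peaks there. On Runx1KO-induced regions 1 of 114 gained peaks did. The 221 gained peaks with a Runx1 peak lay outside open chromatin more often than the others, 52.9% against 34.5%, and held TGTGGT less often, 29.8% (24.0 to 36.3) against 39.0% (37.5 to 40.4). Of these 221, 13 were on sequences not placed on a chromosome.

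These contrasts were also present within ranges of fold cut at the quartiles of the Runx1KO list, a comparison added after the data were seen. Fold was not equalised within a range, and in the highest range kept peaks reached 13.6 and gained peaks 9.92. Among peaks below a fold of 3.48, the lowest fold range of the Runx1KO list, 35.0% of gained and 17.3% of kept peaks lay outside open chromatin, and among those of the highest range, from 5.18, 39.5% and 10.3%. A Runx1 peak was present at 3.42% of gained and 22.5% of kept peaks in the lowest range and at 10.5% and 74.4% in the highest. In all 4 ranges the gained peaks thus had a lower share with Runx1 and a higher share outside open chromatin. Comparing within fold ranges does not take away the part that the rule itself has in the Runx1 share. In the highest range, which held 124 gained peaks, the share on Runx1-dependent regions was 28.2% for gained and 15.2% for kept peaks, a difference of 13.0 points (5.76 to 21.6) in the direction opposite to that of the whole sets.

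The Runx core sequence marked the gained peaks. TGTGGT, searched like all letters here on both strands, lay within the 200 bases around the summit in 1818 of the 4716 gained peaks with sequence (38.5%, 37.2 to 39.9), against 14.3% of windows of the same length 1000 bp to either side. The same letters were in 26.9% of mid-peak windows of that length over all Runx1-dependent ATAC-seq peaks, 14.5% of those over Runx1KO-induced and 14.1% of those over Runx1-independent peaks. Kept peaks held it in 42.2%, so that gained minus kept peaks gave -3.63 points (-5.30 to -1.95). Among peaks with a q of at most 0.0001 this difference was -0.649, and its interval included 0, whereas over whole peaks it was -11.3 and for TGNGGT -9.23. The variant TGCGGT was in 11.9% of gained windows, 2.17% of their flanks and 22.7% of kept windows. The distance from the summit to the nearest match had a median of 29 bp in gained and 30 bp in kept peaks. Sequence could not be read for 84 gained peaks off the placed chromosomes, all outside open chromatin.

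**Figure D3:**
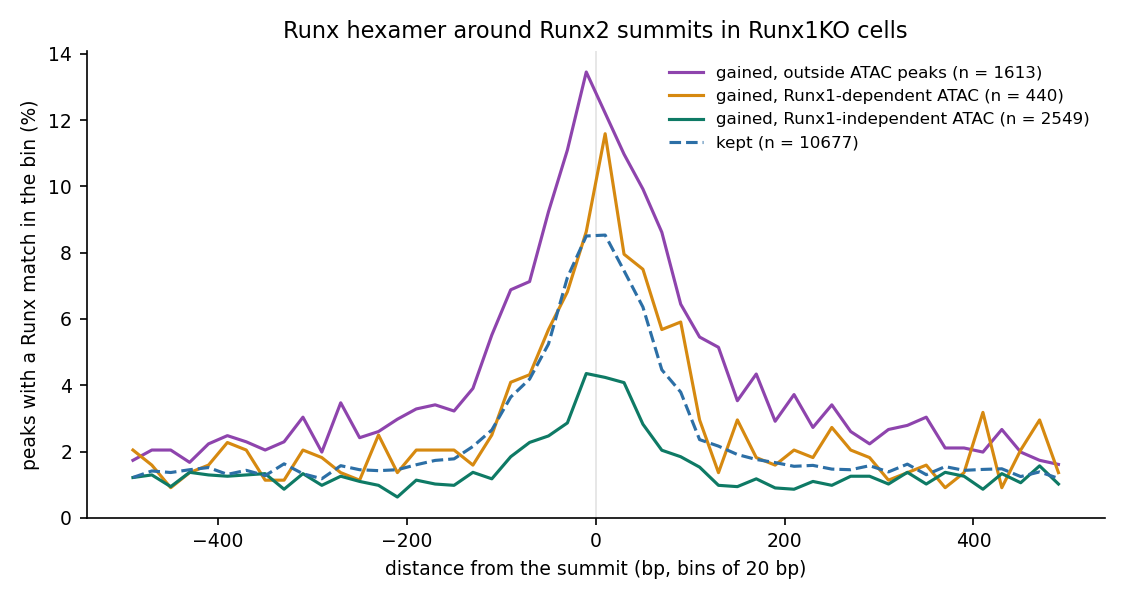
Percent of peaks with TGTGGT or ACCACA in 20 bp bins by distance from the summit in bp, for gained peaks of 3 ATAC-seq classes and for kept peaks. The lines peak around the summit, highest for gained peaks outside open chromatin, of which 22.9% had a match within 20 bp, and lowest for those on Runx1-independent regions (8.59%).

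The share with TGTGGT differed between the groups of gained peaks. It was 57.0% on Runx1-dependent regions (flanks 16.2%), 54.7% outside open chromatin (flanks 14.2%), 44.7% on Runx1KO-induced regions (flanks 15.4%) and 24.9% on Runx1-independent regions (flanks 14.0%). For kept peaks the shares in the same groups were 66.3%, 65.3%, 44.7% and 33.6%. Within a group, kept peaks thus held TGTGGT more often, except on Runx1KO-induced regions, where the shares were alike. Gained peaks outside open chromatin exceeded those on Runx1-independent regions by 29.8 points (26.8 to 32.7), and those on Runx1-dependent regions did so by 32.2 (27.2 to 37.0). The share with TGTGGT also rose with fold among the gained peaks, from 33.5% of the 1200 weakest to 46.9% of the 1200 strongest. In the lowest fold range of the Runx1KO list the gap to kept peaks was -1.51 points (-4.57 to 1.53). In the highest range it was 13.9 points in favour of gained peaks (4.86 to 22.1). These ranges were not matched for ATAC-seq group. In the highest, 39.5% of gained and 10.3% of kept peaks lay outside open chromatin.

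Other factors' letters followed the class of open chromatin. The AP-1 consensus TGAGTCA, bound by Fos and Jun family dimers, was in 20.5% of gained windows on Runx1-dependent and 21.1% on Runx1KO-induced regions, against 9.26% on Runx1-independent regions and 6.26% outside (flanks of all gained peaks, 3.37%). Kept windows in the same groups held it in 24.8%, 13.5%, 9.82% and 6.03%. Mid-peak windows over all Runx1-dependent, Runx1KO-induced and Runx1-independent ATAC-seq peaks held it in 25.5%, 27.1% and 18.6%. CAGGTG or CAGGTA, the E-box form that Zeb1 and Zeb2 bind, was in 36.8% of gained windows on Runx1KO-induced and 12.3% on Runx1-dependent regions, a difference of 24.6 points (15.6 to 34.1). In kept windows on these regions it was in 39.9% and 10.7%, so this contrast was shared by kept peaks. Windows of this length held the E-box in 50.8% of all Runx1KO-induced and 12.0% of all Runx1-dependent ATAC-seq peaks. Over all gained peaks its share was 18.1%, below the 22.2% of their flanks and 0.330 points from that of kept peaks (-0.971 to 1.66), whereas over whole peaks, which were wider in the kept set, the difference was -13.8 points.

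**Figure D4:**
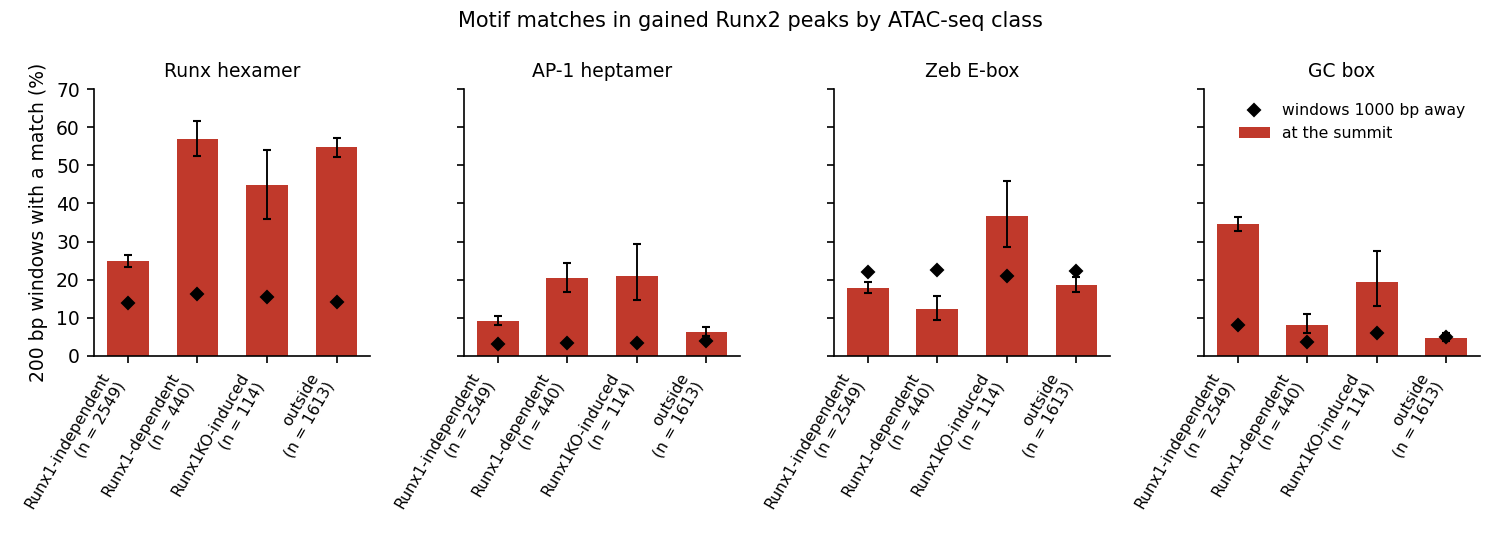
Percent of gained peaks with the Runx, AP-1, E-box and GC-box letters within 200 bases around the summit, by ATAC-seq class, with 95% Wilson intervals, and diamonds for windows 1000 bp to either side. Runx letters are most frequent on Runx1-dependent regions (57.0%) and outside open chromatin (54.7%), E-box letters on Runx1KO-induced regions (36.8%) and GC-box letters on Runx1-independent regions (34.6%).

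Near transcription starts, gained and kept peaks alike held TGTGGT less often than in their whole sets. Of the gained peaks with sequence, 1663 (35.3%) had their summit within 1 kb of a transcription start, a difference of -12.4 points from kept peaks (-14.0 to -10.7) and of 17.8 points from lost peaks (16.1 to 19.4). TGTGGT was in 16.5% of these 1663 windows and in 12.7% of their flanks, and the variant TGCGGT in 13.5% and 3.25%. In kept windows this near a start, TGTGGT was in 22.6% (flanks 13.2%) and TGCGGT in 27.6% (flanks 2.72%). Of the gained peaks, a further 26.4% lay in introns, 36.7% between genes, 0.912% in untranslated exon sequence and 0.763% in coding exons. On Runx1-independent regions 59.0% were within 1 kb of a start and the median GC content was 58.5%, whereas on Runx1-dependent regions 9.09% were that near and the median was 49.5%. GGGCGG, the GC box of Sp family factors, was in 34.6% of gained windows on Runx1-independent regions, 8.18% on Runx1-dependent regions and 4.84% outside. In the lowest fold range 38.8% of gained and 46.5% of kept peaks were within 1 kb of a start. In the highest range, with 121 gained peaks with sequence, the shares were 12.4% and 46.4%.

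Some of these values moved with repeated DNA. The exact 32 bases at the summit occurred more than once in the assembly for 514 gained peaks (10.9%, 10.0 to 11.8), 5.75% of kept and 46.6% of lost peaks. Near-identical copies were not counted. Among gained peaks outside open chromatin the share was 26.5%. For the share outside open chromatin, gained minus lost peaks gave -24.8 points over all peaks and -0.493 points (-2.52 to 1.53) over those whose summit bases occurred once. For TGTGGT it gave 7.79 points (6.01 to 9.57) and -6.08 points (-8.28 to -3.86), so that this difference changed sign. The share of gained peaks with a Runx1 peak was 2.97% among summits that occurred once, against 4.60% over all. On chromosome 15, between 8 and 17 Mb, fold was low in all sets: 77 gained peaks there had a median fold of 2.29, against 3.59 elsewhere, and 83 kept peaks one of 2.39 against 4.55. That block held 62 of the 210 gained peaks with a fold under 2.7 and had TGTGGT at 27.3% (18.6 to 38.1) of its gained summits. Its limits were set after its values were seen. Without the block, gained minus kept peaks gave 21.1 points for the share outside open chromatin, -42.6 for Runx1 peaks, -3.48 for TGTGGT and -12.0 for starts, so that these shares hardly moved.

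For the genes around the gained peaks, each gene's domain ran from 5 kb upstream to 1 kb downstream of its start and on to the neighbouring domains, up to 1000 kb, so that a peak could fall in the domains of 2 genes. RNA-seq levels were the deposited TPM, tested as log2(TPM + 1) with limma, a fold change that understates changes of low genes, and a call required a Benjamini-Hochberg adjusted p under 0.05 and a 2-fold change. The 3 libraries of a genotype came from parallel cultures, and the p-values measure the spread between these only. Of the markers of kidney mesenchyme, 7 of 12 were at 1 TPM or more in all control libraries, and Six2, Wt1, Cited1 and Hoxd11 were under 0.5 in each. Runx1 TPM, counted over the whole gene, was 17.4 ± 1.61 (SD, n = 3) in control and 29.6 ± 0.987 in Runx1KO cells, a measure in which the deleted exon cannot show. Runx2 measured 6, 4.9 and 5.5 TPM in the control libraries and 3.9, 3.7 and 3.6 in the Runx1KO libraries.

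Genes with a gained peak in their domain were called higher less often, and lower more often, than genes without one. Of the 13067 genes tested, 7.91% were called higher and 5.10% lower in Runx1KO cells, and of the 3836 with a gained peak 233 (6.07%) were higher and 237 (6.18%) lower, with a median log2 fold change of -0.06 in each. Of the 7856 tested genes without a gained peak 8.49% (7.89 to 9.13) were higher and 4.67% (4.23 to 5.16) lower, against intervals of 5.36 to 6.87 and 5.46 to 6.98 for genes with one. Genes with a gained but no kept peak were higher in 8.00% (6.61 to 9.65) and lower in 5.96% (4.77 to 7.43). Those with a kept but no gained peak were higher in 5.48% and lower in 4.19%. Genes with no gained, kept or lost peak were higher in 12.9% and lower in 5.06%. Genes with a lost peak were higher in 7.69% and lower in 7.21% (6.45 to 8.06). Neither a low share of higher genes nor a raised share of lower genes was thus particular to gained peaks. The domains of genes with a gained peak were longer, with a median of 140.3 kb against 68.0 kb, and the part of domain length in these shares was not tested. The 118 tested genes with 4 or more gained peaks included 19 lower (16.1%, 10.6 to 23.8) and 6 higher (5.08%), and had a median of -0.20. Without the chromosome 15 block, 16 of 108 such genes were lower. Genes with a gained peak within 1 kb of the start were called seldom, 2.63% higher and 3.40% lower of 1443.

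The ATAC-seq class under the gained peak went with the direction of the nearby genes. Of the 128 tested genes with a gained peak on a Runx1KO-induced region, 26 (20.3%, 14.3 to 28.1) were higher and 4 (3.12%) lower. Genes with a kept peak on such a region were higher in 21.2%, and genes with such a region and no Runx2 peak on it in 13.3%. Of the 496 genes with a gained peak on a Runx1-dependent region, 69 (13.9%, 11.1 to 17.2) were lower and 23 (4.64%) higher. Kept peaks on Runx1-dependent regions had 14.2% of their genes lower, and such regions without a Runx2 peak 8.89%. In both classes, some genes had gained as well as kept peaks, and the shares near gained and near kept peaks were within each other's intervals.

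Among the higher genes with the most gained peaks, Tigit, an inhibitory receptor of lymphocytes, had 5, of which 2 lay on Runx1KO-induced regions, and the strongest (fold 4.88, with TGTGGT) was 0.158 kb upstream of its start. It measured 17.4, 21.2 and 18.8 TPM in the control libraries and 70.6, 78.7 and 71 in the Runx1KO libraries, a log2 fold change of 1.89 ± 0.0767 (SE; limma adjusted p = 9.88e-07). Ephx1, the microsomal epoxide hydrolase, had 4 gained peaks, 3 on Runx1-independent regions. Its TPM was 32.7, 34.5 and 34.7 in control and 148, 152 and 153 in Runx1KO libraries. Dusp5, a phosphatase of nuclear ERK, also had 4 gained peaks and was at 162, 146 and 161 TPM in control and 433, 490 and 476 in Runx1KO libraries. In these genes the groups of libraries did not overlap. B4galnt3, a glycosyltransferase with 3 gained peaks, all on Runx1-independent regions, changed most among those outside the chromosome 15 block, by 4.70 on the log2 scale. Cobl, an actin nucleator, Ppm1j, a phosphatase, and Tmem252 were also higher, by 1.12, 4.15 and 4.00. Capsl, with 3 gained peaks, was at 0.4, 0.2 and 1.2 TPM in control and 124, 117 and 127 in Runx1KO libraries, but all of its gained peaks, and the 5 of Spef2, lay in the chromosome 15 block. Zfp982, with 7 gained peaks, belongs to a zinc finger family of near-identical copies, and its call is uncertain, since the table of control and Runx1KO libraries alone gave it a log2 fold change of 0.17.

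Among the lower genes, Maf, a basic leucine zipper transcription factor, had the most gained peaks, 8, of which 3 were on Runx1-dependent regions. Its TPM was 36.8, 33.8 and 38.7 in control and 15.7, 13.5 and 15.3 in Runx1KO libraries. Its neighbour Wwox, an oxidoreductase gene with a log2 fold change of -1.15, shared 5 of these peaks. Sdk1, a cell adhesion molecule, had 5 gained peaks, all outside open chromatin, and fell from 19.5, 18.4 and 19.6 TPM to 1.7, 1.7 and 2.2. Bcl2l11, which encodes the apoptosis inducer Bim, had 5 and fell from 24, 21.8 and 23.4 TPM to 5.8, 6.3 and 6.1. Egln3, a prolyl hydroxylase of the hypoxia factor HIF, had 5 and was at 171, 166 and 169 TPM in control and 61.7, 62.6 and 67.6 in Runx1KO libraries. For each of these genes the 3 Runx1KO libraries lay below all 3 control libraries. Fmod, a collagen-binding proteoglycan, had 5 gained peaks, 2 of them on Runx1KO-induced regions, and had a log2 fold change of -1.57. Zmiz1, a transcriptional coactivator with 5, and Zfp36l2, an RNA-binding protein of mRNA decay with 6, had log2 fold changes of -1.08 and -1.02, near the limit of a call. The glutamate transporter gene Slc1a3 and Npr3, a receptor of natriuretic peptides, had 7 gained peaks each, all in the chromosome 15 block.

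**Figure D5:**
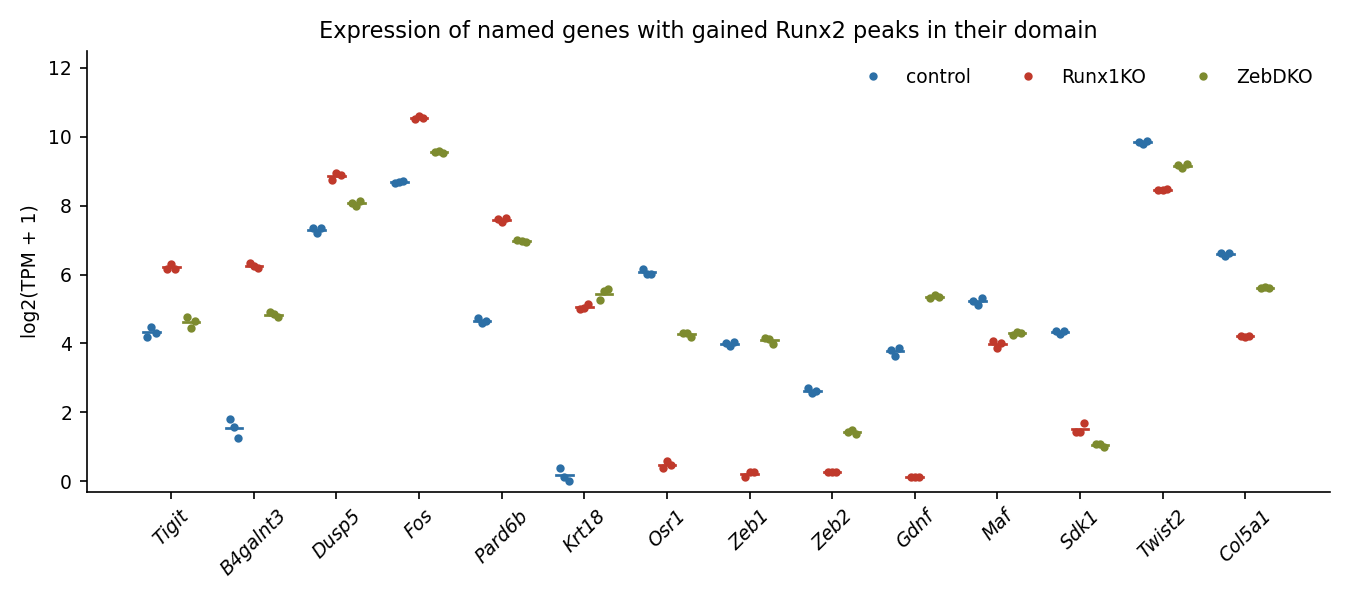
Levels as log2(TPM + 1) of 14 named genes with gained peaks. Each point is 1 control, Runx1KO or ZebDKO library and each bar a group mean, and the 3 Runx1KO points of Tigit, B4galnt3 and Dusp5 lie above, and those of Maf, Osr1 and Zeb1 below, the 3 control points.

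The lists of epithelial and mesenchymal genes held members with gained peaks, as did 3836 of the 11692 tested genes with a position. Of 28 tested epithelial genes 24 were higher in Runx1KO cells and none lower, against 7.91% and 5.10% of all genes. Of the 10 epithelial genes with a gained peak 9 were higher, a share like that of the whole list. Krt18, a keratin of simple epithelia, had 1 gained peak and was at 0.3, 0.1 and 0 TPM in control and 31.2, 31.5 and 34.6 in Runx1KO libraries. Pard6b, a component of the apical polarity complex, had 1 and rose from 25.7, 23.4 and 24 TPM to 194, 183 and 197. The keratin Krt7, the protease Prss8 and the laminin chain Lama3 had 1 each and were higher by 2.88, 2.74 and 2.63, and the Ets factor Ehf had 2 and was higher by 1.16, near the limit of a call. None of the gained peaks of these 6 genes was on a Runx1KO-induced region.

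Of 27 tested mesenchymal genes 12 were lower and none higher, against 5.10% and 7.91% of all genes. Of the 13 with a gained peak 7 were lower. Being lower was thus a trait of the list and not particular to its genes with a gained peak. Zeb1, a repressor of epithelial genes, had 2 gained peaks, both on Runx1-dependent regions, the stronger with TGTGGT and 0.126 kb upstream of its start. It fell from 15.1, 14.2 and 15.6 TPM to 0.1, 0.2 and 0.2. Its relative Zeb2 had 1, at 631 kb upstream and outside open chromatin, and fell from 5.5, 4.9 and 5.2 TPM to 0.2 in each Runx1KO library. Both genes were thus near 0 in all Runx1KO libraries. Twist2, a mesenchymal transcription factor, had 4 gained peaks and a log2 fold change of -1.38, and the collagen genes Col5a2 and Col5a1 and the Wnt effector Lef1 had 1 each and log2 fold changes of -3.32, -2.40 and -3.14.

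Among kidney mesenchyme genes, 3 of 7 tested were lower and none higher, against 5.10% and 7.91% of all genes. Of the 5 with a gained peak 2 were lower, and their median log2 fold change was -0.01. Osr1, a transcription factor of the early kidney field, had 4 gained peaks, 3 of them on Runx1-dependent regions, and fell from 70.9, 64.1 and 64.3 TPM to 0.3, 0.5 and 0.4. Gdnf, the signal that draws the ureteric bud into the mesenchyme, had 2 and fell from 13.1, 11.4 and 13.6 TPM to 0.1 in each Runx1KO library. In ZebDKO cells, compared with the same control libraries, Osr1 was at 18.7, 18.9 and 17.1 TPM and Gdnf at 38.6, 41.4 and 39.4. Gdnf was thus below the control libraries in Runx1KO and above them in ZebDKO cells. Of 8 tested AP-1 genes 3 were higher and none lower, against 7.91% and 5.10% of all genes. Of the 4 with a gained peak 2 were higher. Fos rose from 400, 413 and 422 TPM to 1467, 1549 and 1485, and Atf3 from 428, 429 and 458 to 1156, 1159 and 1224. The strongest gained peak near Fos had a fold of 5.28 with TGTGGT and lay 96.2 kb downstream. None of 8 tested genes of Runx proteins and their partners, Runx1 and Runx2 among them, was called in either direction. The same held for 4 nephron epithelium genes. Cbfb, with 1 gained peak, was at 83, 75.5 and 76.1 TPM in control and 73.3, 71.4 and 74.3 in Runx1KO libraries.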

How the data were processed

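Runx2 peaks of control and Runx1KO mK4 cells were set beside Runx1 peaks, ATAC-seq peaks and RNA-seq levels. Per the methods, the authors' reads were trimmed (Trim Galore), mapped to mm9 and freed of duplicates, and peaks came from MACS2, described as run on replicates joined together, after which the authors removed those that overlapped Runx1-antibody peaks of Runx1KO cells. The deposited peak lists give a fold over background (a ratio), −log10 q values, and a score that is the whole part of 10 times −log10 q. The methods name a q limit of 0.01, but 238 gained peaks (4.96%) had a larger q, up to 0.0494. The deposited ATAC-seq lists also hold the log2 fold change and −log10 p of the authors' own comparison, which were not used. Reads on RefSeq genes were counted with featureCounts 1.6.2 (DESeq2 1.26.0 is also named in the submitters' processing notes) and deposited by the authors as TPM, which keeps no depth.

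Overlaps of at least 1 bp and 200 bp windows around the summits were counted in Python 3.11.15 with pysam 0.24.0, on the assembly NCBIM37, and intervals are Wilson or Newcombe intervals at 95%. Genes that reached 1 TPM in 3 libraries or more were tested with limma 3.58.1 in R 4.3.3 (trend, pseudocount 1) on the 6 libraries of each comparison, taken from the table of 9 libraries, since the table of control and Runx1KO libraries alone served as an alternative. Same-numbered libraries did not deviate together (r from -0.0532 to 0.0385), so the fit has no replicate block. Named genes were the 10 higher and 10 lower genes with the most gained peaks in their domain, ties by fold change, called members of the lists (up to 6 a list and direction), and the Runx genes and Cbfb. Members, lists and tests were chosen with earlier results of these data known. Comparisons by copies of the summit bases, by fold range and without the chromosome 15 block were added after the data were seen.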

Additional observations from a re-analysis of the deposited data

How the results depend on the processing

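The differences between gained and kept peaks in shares outside open chromatin, on Runx1-dependent and Runx1-independent regions, with Runx1 peaks and near starts kept their direction, and their intervals left out 0, when the overlap rule, the q limit or the peaks used were changed. For Runx1 peaks the rule itself bears on the difference under each of these settings. Within fold ranges the difference on Runx1-dependent regions did not hold in the upper ranges, at -1.06 points with an interval that includes 0 and at 13.0 points (5.76 to 21.6). With a q of at most 0.0001 the number of gained peaks was 2410. The difference on Runx1KO-induced regions left out 0 when kept peaks had to be at least 50% covered (0.495 points), with no control peak within 1000 bp (0.800), with the summit inside the other peak (0.522), with 50% of the peak covered (0.515) and with summit bases that occur once (0.555). For TGTGGT it was 0.232 points with no control peak within 1000 bp and -0.649 at a q of at most 0.0001, both with intervals that include 0, and for AP-1 it was -0.708 and -1.03 under the same limits. Larger differences came from whole peaks (-11.3 for TGTGGT, -6.09 for AP-1), TGNGGT (-9.23) and kept peaks at least 50% covered (-6.46 for TGTGGT). For the E-box it was -13.8 points over whole peaks, which are wider in the kept set.

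Gained minus lost peaks turned from positive to negative at a q of at most 0.0001 and with summit bases that occur once, for Runx1KO-induced regions (-0.618 and -1.26) and Runx1-dependent regions (-1.39 and -5.70), and with summit bases that occur once for TGTGGT (-6.08) and AP-1 (-0.607). Of these, the intervals of -0.618, -1.39 and -0.607 include 0, as do those of the values over all peaks for both kinds of region (0.132 and 0.494). The cause was not tested.

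With at least 5 TPM required, 442 genes were lower in Runx1KO cells. Of genes near a gained peak, 6.93% were higher with a pseudocount of 0.1 and 4.97% with no filter. The shares lower were 7.48%, 5.12%, 5.23% and 4.06% with a pseudocount of 0.1, no filter, 5 TPM and a start within 20 kb. The last was below the 5.10% of all tested genes, so the raised share of lower genes did not hold this near a start. Within 20 kb, 35.9% of genes near gained peaks on Runx1KO-induced regions were higher and 23.8% of those on Runx1-dependent regions lower. The latter share was 10.9% with no filter and 18.8% for the nearest start. Leaving out each library in turn gave 1018 to 1041 higher and 660 to 681 lower genes, and shares near gained peaks of 5.92% to 6.07% and 6.15% to 6.33%. In ZebDKO cells 971 genes were higher and 943 lower, and 1183 and 661 with median-ratio scaling. The replicate block gave 1039 higher and 669 lower genes in Runx1KO cells, against 1033 and 666 without it. Of 593 values of named genes 6 fell under the call limit, those of Zfp982, Zfp36l2 and Ehf, and none changed sign. The ChIP-seq lists carry no replicate values, so their differences rest on 1 list per condition.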

Other observations

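Letters of further factors were also counted in the 200 bases around gained summits, on both strands. GGAATG, bound by Tead factors of the Hippo pathway, was in 14.3% of gained windows (13.3 to 15.3), 9.68% of their flanks and 14.9% of kept windows. CCGGAA, bound by Ets factors, was in 12.9% of gained windows on Runx1-independent regions against 2.42% outside open chromatin and 3.18% on Runx1-dependent regions. Kept windows in the same groups held it in 14.7%, 3.05% and 3.08%. AACCNGTT, bound by Grhl factors of epithelia, was in 1.04% of gained windows and 1.69% of their flanks.

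Of 7 tested genes known as Runx2 targets in the skeleton, 2 were lower in Runx1KO cells and none higher, against 5.10% and 7.91% of all genes. Spp1, which encodes osteopontin, had 1 gained peak, 0.564 kb upstream of its start, without TGTGGT and 0.0590 kb from a control Runx2 peak. Its TPM was 174, 179 and 174 in control and 80.4, 82 and 78.3 in Runx1KO libraries. The 2 tested stromal genes each had gained peaks in their domains, 2 in all, and neither was called.

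Gained peaks made up 27.4% (24.3 to 30.6) of the Runx2 peaks of Runx1KO cells on chromosome 9 and 36.8% (31.6 to 42.3) on the X chromosome, the lowest and highest shares among the nuclear chromosomes.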
